A study of Oryza sativa with 4 samples.

Results

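Jasmonate synthesis genes of rice were examined in panicle primordia of 2 Indica cultivars. They were taken as every gene whose symbol or synonym is OG1, or is OPR, AOS or AOC with an optional number, and to which the array annotation gives a probe set of its own. This found 12 genes with 13 probe sets, of 17905 genes and 57258 probe sets in all, and another 2 genes matched by name without a probe set of their own. OPR5 had a pair of probe sets and the other 11 genes had 1 each. The names follow the synonyms of the reference gene table, some of which are shared. LOC4340490 is called OPR1 here but also carries OPR2, and LOC4329684 is called OPR8 but also carries OPR7. OG1 (LOC4345762) carries OPR7 as well, and also OPR3 and OPR13. The 2 genes without a probe set are the OPR3 of chromosome 6 (LOC4340487), which is not OG1, and LOC112936094. The latter is next to LOC4340490 in gene order and also carries OPR1 and OPR2. Whether the OPR1 probe set detects both was not tested.

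Total RNA had been taken from panicle primordia at the stage labelled 0 of the cultivars Pusa 1266 and Pusa Basmati 1, with 2 biological replicates of each, and 1 Affymetrix array was hybridized per sample. The characteristic labels give Pusa 1266 a high and Pusa Basmati 1 a low number of grains per panicle, whereas the sample titles say low for both. No treatment is named for either cultivar, and the plants are compared as whole genotypes. Nothing in the labels says whether the replicates were separate plants, so p-values measure the spread between these samples.

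Jasmonate is a plant hormone of wounding and defence that also shapes flowers and spikelets. In the plastid, lipoxygenases oxidize linolenic acid, allene oxide synthase (AOS) turns the product into an unstable allene oxide, and allene oxide cyclase (AOC) closes its ring to give OPDA. In the peroxisome OPDA is reduced by a type II OPDA reductase (OPR) and shortened by beta-oxidation, and the jasmonic acid formed is joined to isoleucine by JAR1. The conjugate binds the receptor COI1 together with JAZ repressors, which are then degraded. In rice, mutants of AOC (hebiba, cpm2) lack jasmonate, the mutant precocious affects AOS1 and shortens the juvenile phase, and open glumes 1 affects OG1, the type II reductase.

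The levels of the arrays differed. The trimmed mean signal was 78.0 and 89.1 in Pusa 1266, against 138 and 155 in Pusa Basmati 1, so quantile normalization came before each test. For 5 of 5 pairs of control probe sets the ratio of 3' to 5' signal was 1.24 to 3.25 times higher in Pusa 1266. Actin was probed by a second pair. The ratio rises as RNA degrades, and it did not overlap between the cultivars. For GAPDH it was 20.3 and 18.5 in Pusa 1266, against 7.55 and 8.50 in Pusa Basmati 1. For ubiquitin it was 1.07 and 1.08 in Pusa 1266, against 0.75 and 0.77 in Pusa Basmati 1. Of the marker lists, 5 of 7 tested genes of the panicle meristem were called higher in Pusa 1266 and 1 lower, where 34.8% of all 15183 tested genes were called higher and 26.2% lower. With the deposited scaling MADS15 and MADS18 of the 5 turned to −0.35 and −0.29, and OSH1 moved to 0.12. These counts take 1 probe set per gene. That of MADS14 was not called (−0.12), but its other probe sets were called lower (−1.45, −0.93 and −1.96). MADS15 was counted at 0.15, and its other probe sets stood at −0.66 (called lower), −0.05 (not called) and 0.63 (called higher). The other probe set of OSH1 was also called higher (0.97). Of 7 floral organ genes 3 were called higher and none lower, and all 3 (MADS2, MADS4 and MADS58) lay below 0 with the deposited scaling and also when arrays were centred on their medians. Of the secondary wall genes CESA7 was called lower and CESA4 higher, and CESA4 turned to −0.27 with the deposited scaling. The other probe set of CESA4 stood at −0.23 and was not called. The Pusa 1266 signals of CESA7 were 8.5 and 6.8, under the constant of 16 added before log2. CESA9 was too dim to be tested. Green tissue genes were called lower in 4 of 5 cases. In deposited signals, not brought to 1 level, the green tissue list summed to 1346 and 1340 in Pusa 1266, against 5224 and 6102 in Pusa Basmati 1. Most of these sums came from CAB2R. Its first probe set gave 784.7 and 781.7 in Pusa 1266, against 2641.2 and 3091.3 in Pusa Basmati 1. Its second gave 257.2 and 250.2 in Pusa 1266, against 1671.7 and 2009.5 in Pusa Basmati 1. Of the 27 green tissue genes matched by name, 21 had no probe set of their own. The meristem list summed to 10430 and 11605 in Pusa 1266, against 13116 and 14253 in Pusa Basmati 1, and the floral list to 3046 and 3499 in Pusa 1266, against 4821 and 5599 in Pusa Basmati 1. The part of RNA integrity and of green tissue in the results below was not tested. In such bulk samples, fewer cells of a type and less RNA per cell cannot be told apart.

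At each of the successive steps AOS, AOC and OPR at least 1 transcript was lower in Pusa 1266. AOS1 was 7.09-fold lower, AOC 1.87-fold and OG1 1.92-fold. In the reductase family OPR1 and OPR4, which lie close together on chromosome 6, were also lower, whereas OPR8 and OPR12 did not pass the test. AOS2 did not pass either, at 0.44 on the log2 scale. Of the 13 probe sets 8 exceeded the median signal on at least 2 arrays and were tested. Of these 5 were called lower and none higher in limma with Benjamini-Hochberg adjustment over all 30029 tested probe sets. At an unadjusted p of 0.05 there were also 5 lower and 0 higher. Of all tested probe sets 25.2% were called lower and 28.2% higher, and 53.4% were called in either direction. The normalized values of the cultivars did not overlap, with Pusa 1266 lower, for 5 of the 8, as for 35.7% of all tested probe sets, and the deposited signals for 6 of the 8, as for 72.0%.

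**Figure D1:**
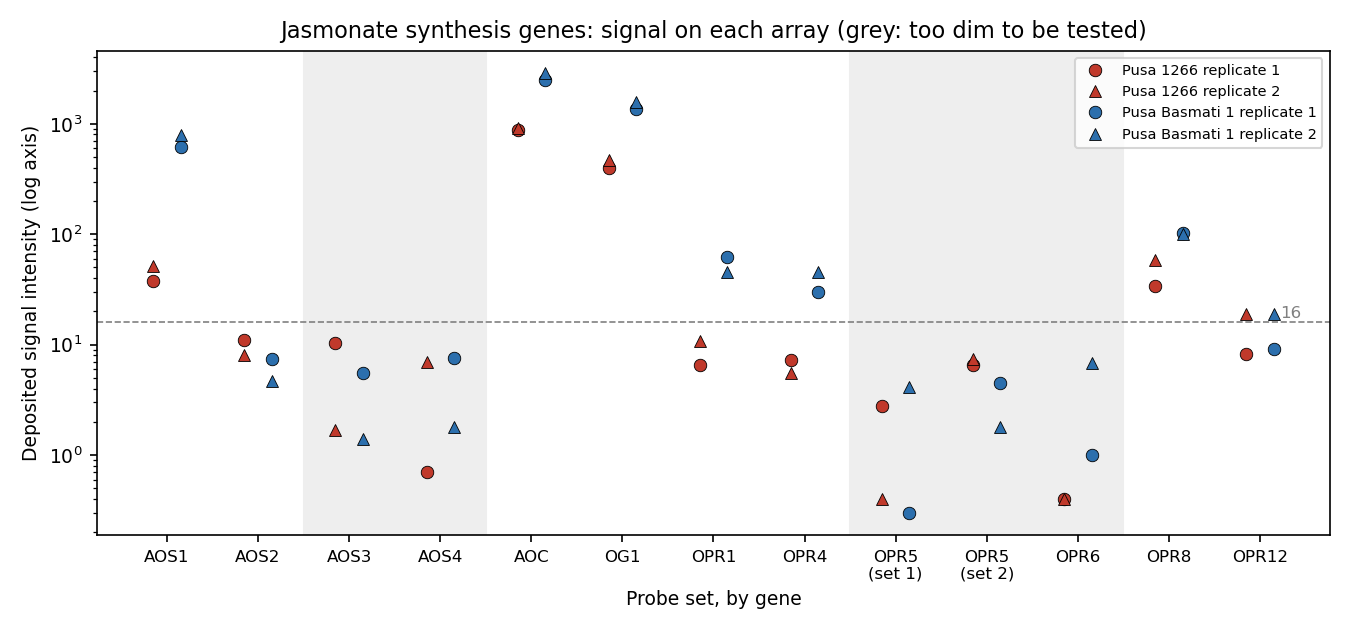
Deposited signal intensity (log axis) of the 13 probe sets of the 12 jasmonate synthesis genes on each array, with Pusa 1266 in red at the left and Pusa Basmati 1 in blue at the right of each position, circles for replicate 1 and triangles for replicate 2. The dashed line is the constant of 16 used in the log2 values, and grey bands mark the 5 probe sets too dim to be tested. AOS1, AOC, OG1, OPR1, OPR4, OPR6 and OPR8 are lower on each Pusa 1266 array than on either Pusa Basmati 1 array. OPR6 was not tested and OPR8 was not called. The deposited signals of 72.0% of all tested probe sets are apart in this way.

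AOS1 (LOC4334233, chromosome 3) makes the allene oxide and showed the widest separation of the set. Its signal was 37.6 and 51.4 in Pusa 1266, against 610.0 and 797.4 in Pusa Basmati 1. Both Pusa 1266 arrays lay far below both Pusa Basmati 1 arrays, and neither cultivar had a signal under the added constant of 16. The log2 difference, Pusa 1266 minus Pusa Basmati 1, was −2.82 ± 0.11 (SE, n = 2 per cultivar, adjusted p = 5.53e-07 in limma), which is a 7.09-fold lower level with a 95% interval of 5.96 to 8.43. Only 249 of the tested probe sets (0.829%) had a lower difference. The size followed the added constant, at −3.11 with a constant of 1 and −2.24 with 64.

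The other allene oxide synthase genes gave low signals in both cultivars. AOS2 (LOC4332121, chromosome 3) stood at 11.1 and 8.0 in Pusa 1266, against 7.4 and 4.7 in Pusa Basmati 1. These signals do not overlap, but they all lie under the added constant, and the difference of 0.44 ± 0.20 (SE) had an adjusted p of 0.0932 in limma (95% interval −0.013 to 0.89). AOS2 passed the filter on dim probe sets only through the Pusa 1266 arrays, where it exceeded the array median, whereas OPR1 and OPR4 passed it mainly through those of Pusa Basmati 1. AOS3 and AOS4, on chromosome 2, were not tested. AOS3 had signals of 10.4 and 1.7 in Pusa 1266, against 5.6 and 1.4 in Pusa Basmati 1. For AOS4 they were 0.7 and 7.0 in Pusa 1266, against 7.6 and 1.8 in Pusa Basmati 1. For both genes the replicates of 1 cultivar differed more than the cultivars did.

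AOC (LOC4333201, chromosome 3) encodes the cyclase that fixes the stereochemistry of OPDA. Its signal was 882.1 and 922.0 in Pusa 1266, against 2479.4 and 2895.9 in Pusa Basmati 1. The cultivars did not overlap, and the deposited signal was 2.98 times higher in Pusa Basmati 1. Quantile normalization reduced that separation to a log2 difference of −0.90 ± 0.05 (SE, adjusted p = 5.14e-06 in limma), or 1.87-fold lower with an interval of 1.71 to 2.03.

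OG1 (LOC4345762, chromosome 8) reduces OPDA on the way to jasmonic acid. Its signal was 401.6 and 468.0 in Pusa 1266, against 1354.0 and 1562.5 in Pusa Basmati 1. The cultivars were as clearly apart as for AOC, with a log2 difference of −0.94 ± 0.06 (SE, adjusted p = 5.28e-06 in limma), or 1.92-fold lower with an interval of 1.76 to 2.10. AOC and OG1 had differences whose intervals overlapped. The interval of AOS1 lay below both, although the difference between these genes was not itself tested.

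The remaining OPR genes belong to the same enzyme family. In Arabidopsis the type I members prefer other substrates to the natural isomer of OPDA, and OPR1 of rice is known to be induced by jasmonate and wounding. OPR1 (LOC4340490, chromosome 6) had signals of 6.5 and 10.8 in Pusa 1266, against 62.0 and 45.1 in Pusa Basmati 1. OPR4 (LOC4340486, chromosome 6) had 7.3 and 5.5 in Pusa 1266, against 30.2 and 45.3 in Pusa Basmati 1. In both genes the Pusa 1266 signals lay under the added constant and the Pusa Basmati 1 signals above it, so the direction is measured and the size is set in part by that constant.

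The log2 difference of OPR1 was −1.06 ± 0.20 (SE, adjusted p = 0.00240 in limma), and it became −1.80 with a constant of 1 and −0.48 with 64. That of OPR4 was −0.87 ± 0.18 (SE, adjusted p = 0.00461 in limma), with −1.68 and −0.36 under those constants. Without the second Pusa Basmati 1 replicate OPR4 stood at −0.67 and did not pass (adjusted p = 0.0566 in limma).

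OPR8 (LOC4329684, chromosome 2) had signals of 33.9 and 58.3 in Pusa 1266, against 102.7 and 100.5 in Pusa Basmati 1. The deposited signals do not overlap, but the normalized values do, and the difference was −0.24 ± 0.16 (SE, adjusted p = 0.257 in limma, 95% interval −0.62 to 0.14). Its call rested on the scaling and on 1 array. It passed with the deposited scaling (−0.95), with each array centred on its median (−0.72) and without the second Pusa 1266 replicate (−0.47, adjusted p = 0.0362 in limma).

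OPR12 (LOC107279821, chromosome 4) gave 8.3 and 18.8 in Pusa 1266, against 9.2 and 18.9 in Pusa Basmati 1. The replicates differed more than the cultivars, and the difference of 0.29 ± 0.24 (SE) did not pass (adjusted p = 0.332 in limma, 95% interval −0.25 to 0.84). OPR6 and both probe sets of OPR5, on chromosome 6, were not tested. The untested probe sets of AOS3, AOS4, OPR5 and OPR6 had signals between 0.3 and 10.4 on all arrays. With no filter all 13 probe sets were tested, and the same 5 were called lower and none higher.

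**Figure D2:**
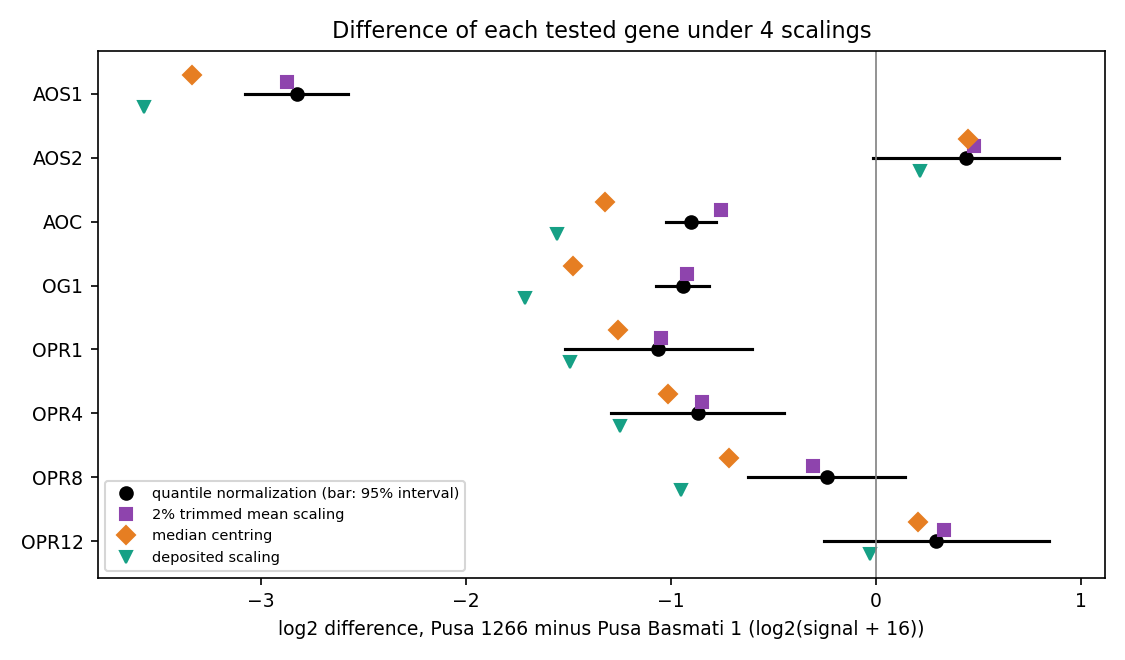
Log2 difference, Pusa 1266 minus Pusa Basmati 1, of the 8 tested genes, 1 row per gene. Black points are quantile-normalized values with 95% intervals from limma, and coloured points give the same difference under 3 other scalings. The 5 called genes lie below 0 under all 4 scalings, and OPR12 changes sign with the deposited scaling.

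The scaling between arrays moved the sizes and, among the 4 genes near −1, their order. The median difference of all tested probe sets was 0.03 in the quantile-normalized values, −0.55 with the deposited scaling, −0.32 with median centring and 0.04 with trimmed mean scaling. With the deposited scaling AOS1 stood at −3.57, AOC at −1.55 and OG1 at −1.71. Relative to the median of all tested probe sets, these were −3.02, −1.004 and −1.16. Trimmed mean scaling gave −2.87, −0.76 and −0.92. OPR1 and OPR4 stood 0.94 and 0.70 below that median with the deposited scaling. OPR8 stood 0.40 below it, against 0.27 below after quantile normalization.

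**Figure D3:**
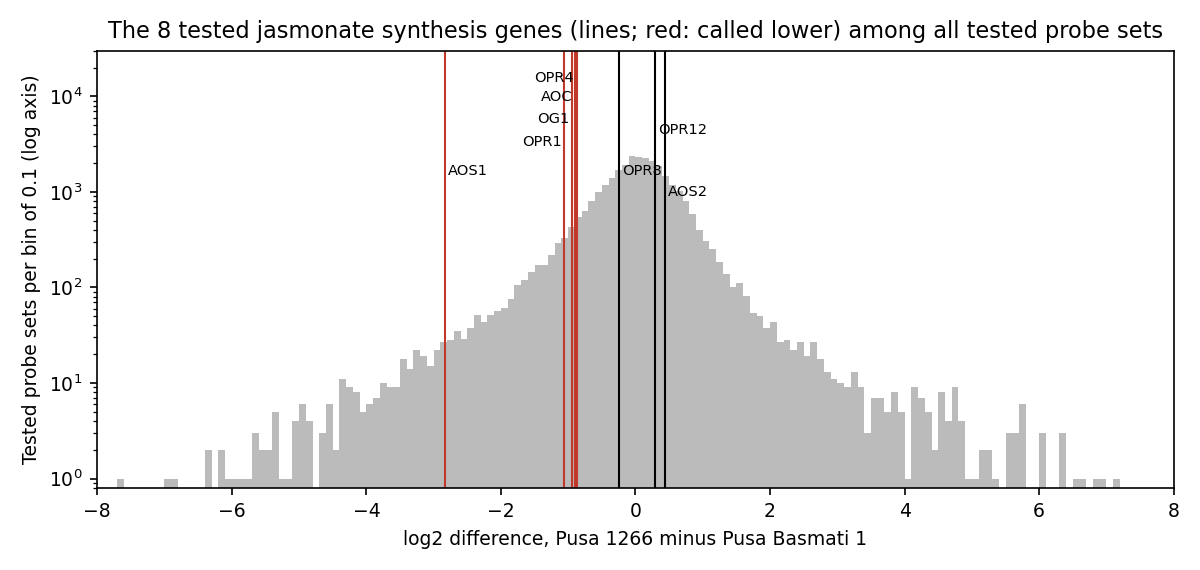
Distribution of the log2 difference, Pusa 1266 minus Pusa Basmati 1, over all 30029 tested probe sets in bins of 0.1 (log count axis), with a line for each of the 8 tested jasmonate synthesis genes (red where called lower). AOS1 stands at −2.82 in the lower tail, while AOC, OG1, OPR1 and OPR4 lie together between −1.06 and −0.87.

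The called genes apart from AOS1 were not extreme for this comparison. A lower difference than theirs was found for 9.06% of tested probe sets in the case of AOC, 8.41% for OG1, 6.97% for OPR1 and 9.55% for OPR4. At 2-fold or more, AOS1 and OPR1 remained, where 7.63% of all tested probe sets were called lower. The median over the 8 tested members was −0.88, against 0.03 over all tested probe sets.

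In the reference gene order 6 OPR genes fall within 8 consecutive genes of chromosome 6. Of these 4 had a probe set, and only OPR1 and OPR4 were tested, both called lower. Among the other tested genes within 5 genes of OPR4, LOC4340483 was lower (−1.57) and LOC4340482 higher (0.53), and LOC4340491 did not pass (−0.15). AOS1 had 7 tested genes within 5 genes on either side, of which 2 were lower, 2 higher and 3 not called, between −1.16 and 0.67. For such counts of neighbours, the shares over all tested genes were 26.2% lower and 34.8% higher. Next to AOC, LOC4333202 stood at 0.06, and LOC4333206, 5 genes away, at 0.68. Within 5 genes of OG1, 2 of 4 were lower, among them the germin-like gene GLP1 at −1.66, and the cytokinin oxidase gene CKX11 stood at 0.11. The difference of AOS1 was larger than that of any of its 7 tested neighbours.

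**Figure D4:**
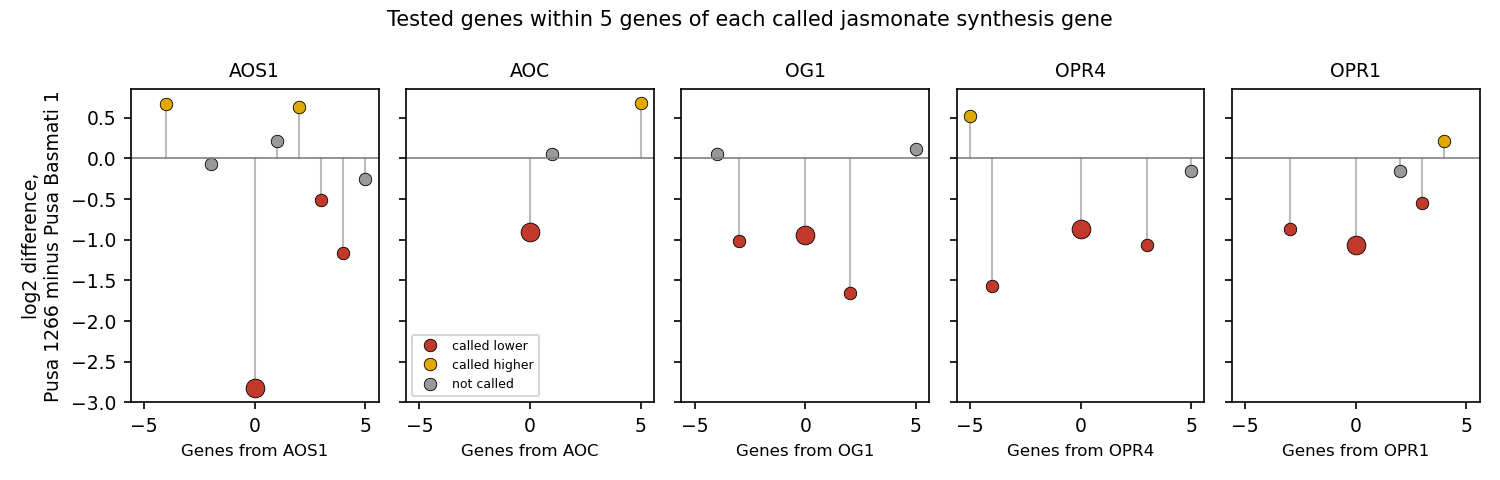
Log2 difference, Pusa 1266 minus Pusa Basmati 1, of the tested genes up to 5 genes to either side (horizontal axis, position in the reference gene order) of the 5 called genes, which are the large points at 0. Red points were called lower, yellow higher and grey not called. The neighbours of AOS1 lie between −1.16 and 0.67, and AOS1 itself at −2.82.

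Other genes of the jasmonate pathway were taken from 6 lists of names, and 27 had a tested probe set. In Pusa 1266 15 were called lower, 7 higher and 5 not called, with a median of −0.80 against 0.07 over all tested genes, of which 26.2% were called lower and 34.8% higher. With the deposited scaling none of the 27 was called higher, and with median centring 2 were.

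Among lipases and lipoxygenases, LOX5 (LOC4333823, chromosome 3) had signals of 361.3 and 418.2 in Pusa 1266, against 2429.5 and 2815.0 in Pusa Basmati 1. It was 4.02-fold lower, at −2.01 ± 0.05 (SE, adjusted p = 8.12e-08 in limma). The list was made by name, and whether LOX5 supplies the substrate of AOS was not tested. LOX2 stood at 0.29 (adjusted p = 0.0619 in limma) and at −0.47 with the deposited scaling. The other 4 genes of the list with a probe set were too dim to be tested, among them LOX3, which the gene table also names r9-LOX1. CM-LOX1 and CM-LOX2 were also among them, with signals of 4.7 or less on every array, so neither cultivar gave a measure of these lipoxygenases. No gene matched the names of the hydroperoxide lyases, which compete with AOS for its substrate.

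After OPR, in peroxisomal activation and beta-oxidation, 1 of 4 tested genes was lower and 2 were higher. Of all tested genes 26.2% were called lower and 34.8% higher, so counts over 4 genes are near these shares. The ligase-like gene 4CLL4 was lower at −1.14 ± 0.11 (SE), and 4CLL7 and 4CLL1 were higher at 0.68 and 0.44. With the deposited scaling 4CLL1 turned to −0.33 and 4CLL7 moved to 0.010, and with median centring they stood at −0.09 and 0.24. Neither was called higher under these scalings. Some ligases of this family activate OPDA derivatives in Arabidopsis, and whether these do is not known from the files. MFP, a multifunctional protein of beta-oxidation, stood at −0.04 and did not pass. JAR1 (listed as GH3.5), which makes the active isoleucine conjugate, had signals of 50.3 and 48.9 in Pusa 1266, against 132.6 and 137.0 in Pusa Basmati 1. It was lower at −0.45 ± 0.12 (SE, adjusted p = 0.0160 in limma), but did not pass when the second Pusa 1266 replicate or either Pusa Basmati 1 replicate was left out.

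In perception and signalling, 11 of 19 tested genes were lower and 5 higher, where 26.2% of all tested genes were called lower and 34.8% higher. The 11 were 10 JAZ genes, from −4.38 to −0.89, and BHLH148, whose protein binds JAZ repressors. Those furthest apart were JAZ10 (−4.38), JAZ9 (−4.34), JAZ11 (−4.20) and BHLH148 (−4.19), and for JAZ9 and JAZ11 the Pusa 1266 signals lay under the added constant. The second tested probe set of JAZ4 stood at 0.45 and did not pass, and that of JAZ10 was lower at −4.82. NINJA1 was counted as not called (−0.015), but its other tested probe set was called lower at −1.205. The receptor genes COI1A (listed as COI1) and COI1B stood at 0.08 and 0.10 and did not pass, and COI2 was higher at 0.97 (0.20 with the deposited scaling). The JAZ family did not move as one, since EG2, which is also named JAZ1, was called higher at 0.62 (0.09 with the deposited scaling). The other genes called higher were 3 TIFY genes without a JAZ name (TIFY1a, TIFY2a and TIFY2b). They also carry the names GATA18, GATA17 and GATA20 and entered the list by the TIFY name alone, and a part in jasmonate signalling was not tested. Of the 5, TIFY1a and TIFY2a turned to −0.22 and −0.48 with the deposited scaling, and TIFY2a also turned, to −0.25, with median centring.

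Of genes known to respond to jasmonate, the trypsin inhibitor gene RBBI3.3, of a family induced by wounding, had signals of 62.3 and 69.5 in Pusa 1266, against 216.5 and 249.1 in Pusa Basmati 1. It was lower at −0.80 ± 0.10 (SE, adjusted p = 0.000233 in limma). JAMYB and salT were too dim to be tested, with signals of 11.8 or less on every array.

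**Figure D5:**
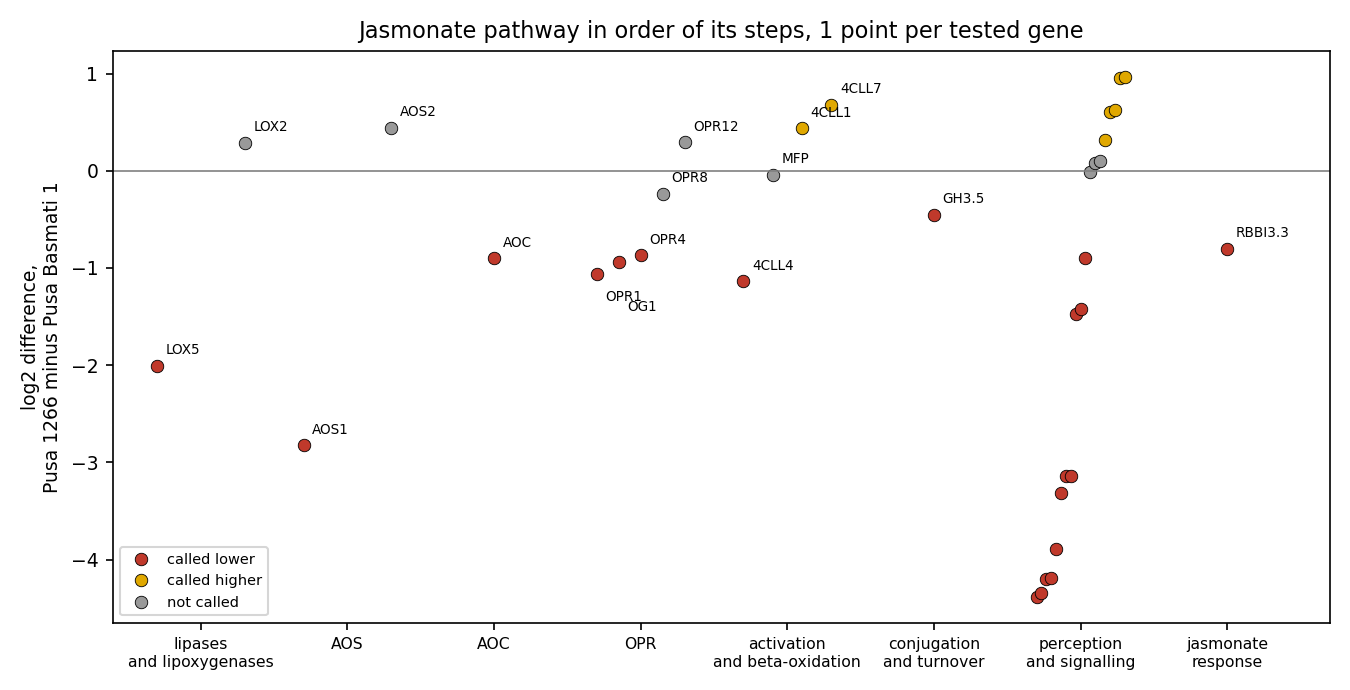
Log2 difference, Pusa 1266 minus Pusa Basmati 1, of every tested gene of the jasmonate pathway, 1 point per gene, with the steps in their order along the horizontal axis. Red points were called lower, yellow higher and grey not called. AOS1, AOC, OG1 and JAR1 (GH3.5) were lower, as was LOX5, whose place before AOS was not tested. The widest range is in perception and signalling, from −4.38 to 0.97.

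The named genes most like AOS1 and OG1 over the 4 arrays were found by the Euclidean distance between mean-centred normalized log2 values, among 2132 named genes. For AOS1 these were the mitogen-activated kinase gene BIMK1 (distance 0.19, log2 difference −2.77), the heat stress factor gene HSF2 (distance 0.19, −2.91) and the protein phosphatase gene OsPP2C29 (distance 0.20, −2.74). For OG1 they were the Argonaute gene AGO2 (distance 0.033, −0.92), DJC27, of the DnaJ co-chaperones (distance 0.045, −0.99), and LSD1 (distance 0.049, −0.91). With 2 arrays per cultivar, such likeness reflects mostly the difference between the cultivars.

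Each called gene of the set rests on 1 probe set. A difference in the probed sequence between the cultivars and a difference in transcript level therefore cannot be told apart for AOS1, AOC, OG1, OPR1 and OPR4.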

How the data were processed

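The authors deposited a table of linear signal intensities of 57381 probe sets on 4 arrays. GCOS 1.2 is the tool named in the submitters' processing notes, and per the labels' protocols 8 ug of total RNA were labelled. How background and scaling were handled is not given in the sources used here. Samples were grouped by the cultivar in their titles. The 123 control probe sets were left out, 16 was added, log2 was taken and arrays were quantile normalized. The 30029 probe sets brighter than the array median on 2 or more arrays were tested in limma 3.58.1 (lmFit, then eBayes with trend) under R 4.3.3, Pusa 1266 minus Pusa Basmati 1, and p-values adjusted by Benjamini-Hochberg were called under 0.05. The fit was tested on simulated data. No exact permutation test was run, since 0.333 is the smallest two-sided p that 2 arrays against 2 allow. Precision is limited by the number of arrays.

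The array annotation tied probe sets to genes and gave 1 gene for 22436, several for 95 and none for 34727. A gene was represented by its tested probe set with the highest mean. The reference gene table (ASM3414082v1) gave names, chromosomes and gene order, and no coordinates are given because the array's build is not stated. The named genes were all members, and up to 4 called genes per list with the largest differences. Other list, marker and neighbouring genes were named after their values were seen. Among them were LOX2, LOX3, CM-LOX1, CM-LOX2, MFP, JAMYB, salT, COI1A, COI1B, COI2, EG2, NINJA1 and the TIFY genes. So were the further probe sets of JAZ4, JAZ10, CESA4, CAB2R and the meristem genes. The members and lists were chosen with earlier results of these data known. DAD1, RSs3, PSA and a synonym of MADS18 were left out of lists because the names belong here to other genes. Alternatives changed the scaling, the added constant, the filter, the variance trend, the fold threshold, the replicate block and each array. Python 3.11.15 and pandas 2.3.3 were used for tables. No promoter or protein sequence was used here.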

Additional observations from a re-analysis of the deposited data

How the results depend on the processing

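AOS1, AOC and OG1 were called lower under every scaling, constant, filter, variance setting and left-out array. So was OPR1, except under the filter at the 75th percentile, where OPR1 and OPR4 were not tested. The count of members called lower was 5, and it became 3 with that filter and 2 with a 2-fold threshold (AOS1 and OPR1). It was 4 to 6 when each array was left out. The number called lower over all probe sets became 17956 with the deposited scaling, 13660 with median centring and 2290 with the 2-fold threshold, and the number called higher 1646, 2906 and 1707. Of other pathway genes 0, 2 and 0 were then called higher. Their median of −0.80 became −1.60 and −1.37 under those scalings, −0.89 with trimmed mean scaling, −0.90 with a constant of 1 and −0.59 with 64. OPR12 reversed to −0.028 with the deposited scaling. The median of the activation and beta-oxidation genes (0.20) reversed to −0.58 and −0.34 under the deposited and median-centred scalings and to −0.044 with the filter at the 75th percentile, which left 3 of its genes. The replicate numbers are not stated to mark a shared batch, and replicate deviations of the cultivars correlated with r = 0.0181 across probe sets. With the replicate number as a block 7702 probe sets were lower and 8656 higher, and 5 members remained lower. No member gene had over 1 tested probe set, so a mean over probe sets could not be tried. The cause of these shifts was not tested.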
